A study of Mus musculus with 12 samples.

Results

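miR-34a is a small regulatory RNA described in bone biology as a suppressor of osteoclasts, the multinucleated cells that resorb bone. It was identified on the arrays by its systematic name, mmu-miR-34a, which matched 1 of the 696 mouse miRNAs printed there. Its signal was followed over 5 days of osteoclast formation in culture. miR-34a was higher at day 5 than at day 1, by 1.00 on the log2 scale (SE 0.12, a 2.01-fold difference, n = 4 cultures per day). Its position at day 3 depended on how the arrays were scaled to each other.

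Bone marrow cells came from 6 to 8 week old male C57BL/6 mice and had been depleted of CD45R-positive and CD3-positive cells, which removes B and T lymphocytes and enriches osteoclast precursors. All cultures, day 1 included, received 30 ng/ml M-CSF, the survival and growth factor of the macrophage lineage, and 30 ng/ml RANKL, the cytokine that drives osteoclast differentiation. RNA from 4 cultures at each of day 1, day 3 and day 5 was hybridized to 12 one-colour arrays. There was no culture without RANKL among these samples, so time in culture and exposure to RANKL cannot be told apart, and a culture is a mixture of cells at several stages. In such bulk samples a change in the number of cells that carry a miRNA and a change in its amount per cell cannot be told apart. The labels number the cultures but do not say whether they came from separate mice, so p-values measure the spread between these samples.

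As background, a miRNA is loaded into an Argonaute protein and recognizes messenger RNAs mainly through its seed, the short stretch near its 5′ end, which pairs with sites in the message and lowers its translation and stability. The miR-34 family is a classic target of the transcription factor p53 and restrains cell cycle progression and survival. miR-34a is made from its own gene, whereas miR-34b and miR-34c are cut from a shared transcript. In bone, miR-34a has been described as holding back osteoclast differentiation through the transcriptional regulator Tgif2. The arrays measured the level of the miRNA and did not measure any effect of it on osteoclasts.

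The mature sequences below show what the family shares. They were taken from RefSeq (assembly GRCm38.p6), run 5′ to 3′, and carry the seed, bases 2 to 8, in capitals. The same 7 seed letters stood in 4 of the 1679 mature miRNA entries. That table is not complete: it was without an entry for miR-34c-5p and miR-449b, which also belong to this seed family.
mmu-miR-34a-5p: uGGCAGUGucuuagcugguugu
mmu-miR-34b-5p: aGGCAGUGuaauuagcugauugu
mmu-miR-449a-5p: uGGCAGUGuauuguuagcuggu
mmu-miR-449c-5p: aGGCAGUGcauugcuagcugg

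When gaps were allowed in the alignment, miR-34b-5p had 19 bases identical to miR-34a, miR-449a 18 and miR-449c 15. miR-34a was read by a nested pair of probes of 19 and 20 bases, shown here because they carry every miR-34a value below. Both are complementary to the 3′ end of the mature miRNA, the shorter to bases 4 to 22 and the longer to bases 3 to 22, and the capitals mark the base that the longer probe adds.
miR-34a, 19-base probe: acaaccagctaagacactg
miR-34a, 20-base probe: acaaccagctaagacactgC
miR-34c, 20-base probe: gcaatcagctaactacactg

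The files place the longer miR-34a probe at chr4:149442585-149442603 in the mm9 build of the mouse genome. In the RefSeq annotation Mir34a overlaps no other gene and lies between the long noncoding RNA Gm13067 and the protein-coding gene Gpr157. Probes for miR-34b-5p and miR-34c lie at chr9:50911682-50911702 and chr9:50911155-50911173 (mm9), and the Mir34b and Mir34c genes overlap Hoatz and Btg4. The RNA letters read by the 20-base miR-34c probe shared 16 identical bases with miR-34a.

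miR-34a was measured well above background throughout. It was detected on 12 of 12 arrays. Each array carried 20 spots for it, 10 per probe, and all 240 spots were well above background with 0 saturated. Spots of a probe on an array varied with a coefficient of variation of 2.21 to 11.4% (median 6.03%), and spot signals were 29.8 to 182 times the local background.

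As read by the scanner, before any scaling between arrays, the total signal of miR-34a at day 1 was 7163, 6071, 7904 and 4236 in cultures 1 to 4. At day 3 it was 6556, 5486, 5417 and 5567. At day 5 it was 12193, 10003, 10410 and 10396. Every day 5 array was thus brighter for miR-34a than any array of the earlier days, whereas the day 3 values lay within the range of day 1. The group means were 6343 ± 1594 at day 1, 5756 ± 536 at day 3 and 10751 ± 980 at day 5 (SD, n = 4), so that day 3 and day 5 stood at 90.7% and 169% of day 1.

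The arrays also differed in their total signal over all miRNAs, which at day 3 and day 5 averaged 58.6% and 80.7% of that at day 1. Of the 696 miRNAs, 334 were detected on at least 1 array and 148 on all 12. Between 233 and 276 were detected per array at day 1, 211 to 226 at day 3 and 186 to 269 at day 5. The median signal over background of detected miRNAs was between 6.71 and 16.5 on each array. All day 1 and day 5 arrays were on slide 1 and all day 3 arrays on slide 2, so the slide and day 3 cannot be told apart, while day 5 against day 1 is a comparison within a slide.

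After quantile normalization, which gives every array the same distribution of signals, miR-34a read 12.22, 12.27, 12.70 and 12.09 (log2) at day 1. At day 3 it read 12.95, 13.06, 13.00 and 13.06. At day 5 it read 13.41, 13.37, 13.22 and 13.28. On this scale the 3 days formed separate steps with no overlap between neighbours, a pattern of rise at each step shared by 13.8% of the 334 tested miRNAs. The means were 12.32 ± 0.27, 13.02 ± 0.05 and 13.32 ± 0.09 (SD, n = 4), and the spread was widest at day 1.

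**Figure D1:**
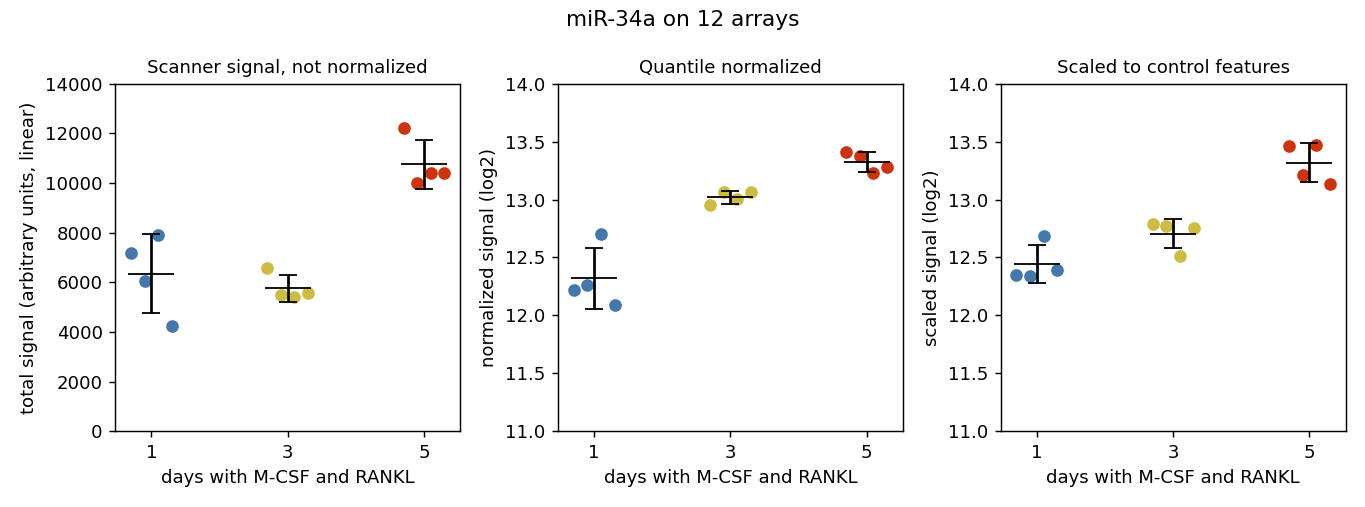
miR-34a in the 4 cultures of each day, as scanner signal (linear), after quantile normalization (log2) and after scaling to control features (log2), with days in culture on the horizontal axes. Points are arrays and black bars the mean ± SD. Day 5 lies above day 1 in all 3 panels, whereas day 3 overlaps day 1 in the first and the last.

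miR-34a changed over the time course in the moderated F test of limma (adjusted p = 6.994e-05), as did 62.9% of the tested miRNAs. Adjusted p-values are after Benjamini-Hochberg correction over all 334 miRNAs, with 0.01 as the threshold. Between day 1 and day 5 it rose by 1.00 (95% confidence interval 0.74 to 1.27, 1.67 to 2.42-fold, limma adjusted p = 2.519e-05), and the lowest day 5 array (13.22) lay above the highest of day 1 (12.70, two-sided exact permutation p = 0.0286, the smallest that 4 against 4 allows). Of all tested miRNAs, 31.7% were higher at day 5 than at day 1 at this threshold. The difference for miR-34a was the 98th highest of 334, against a median of 0.11.

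Without any scaling the day 5 difference was 0.80 (limma adjusted p = 0.003545), and fitted on slide 1 alone it was 0.98 (limma adjusted p = 0.000552). Scaled to a pair of control features on the arrays, dmr_285 and dmr_31a, it was 0.88 (limma adjusted p = 0.000185). Across 17 other settings it ranged from 0.79 to 1.13, with the same call in each.

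The step from day 1 to day 3 was less certain. After quantile normalization miR-34a was higher at day 3 by 0.70 (SE 0.12, 95% confidence interval 0.43 to 0.97, 1.63-fold, limma adjusted p = 0.0005212), and 27.2% of tested miRNAs were higher at that threshold. With no scaling the difference was -0.11 (95% confidence interval -0.52 to 0.31, limma adjusted p = 0.667), and with the control features it was 0.26 (limma adjusted p = 0.1251). Scaled by the 75th percentile or the median of the arrays it was 0.62 to 0.69 and passed. Of 16 other settings 14 kept the call, but most of the 16 kept quantile normalization and so did not vary the scaling. Those that lost it were no scaling and the control features. Whether miR-34a had risen by day 3 therefore depended on the scaling.

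The step from day 3 to day 5 mirrored this. The quantile-normalized difference was 0.30 (SE 0.12, 95% confidence interval 0.04 to 0.57, limma adjusted p = 0.08127) and did not pass, whereas 14.7% of tested miRNAs were higher at the threshold. It was 0.90 with no scaling (limma adjusted p = 0.003686) and 0.61 with the control features (limma adjusted p = 0.005108), both of which passed.

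**Figure D2:**
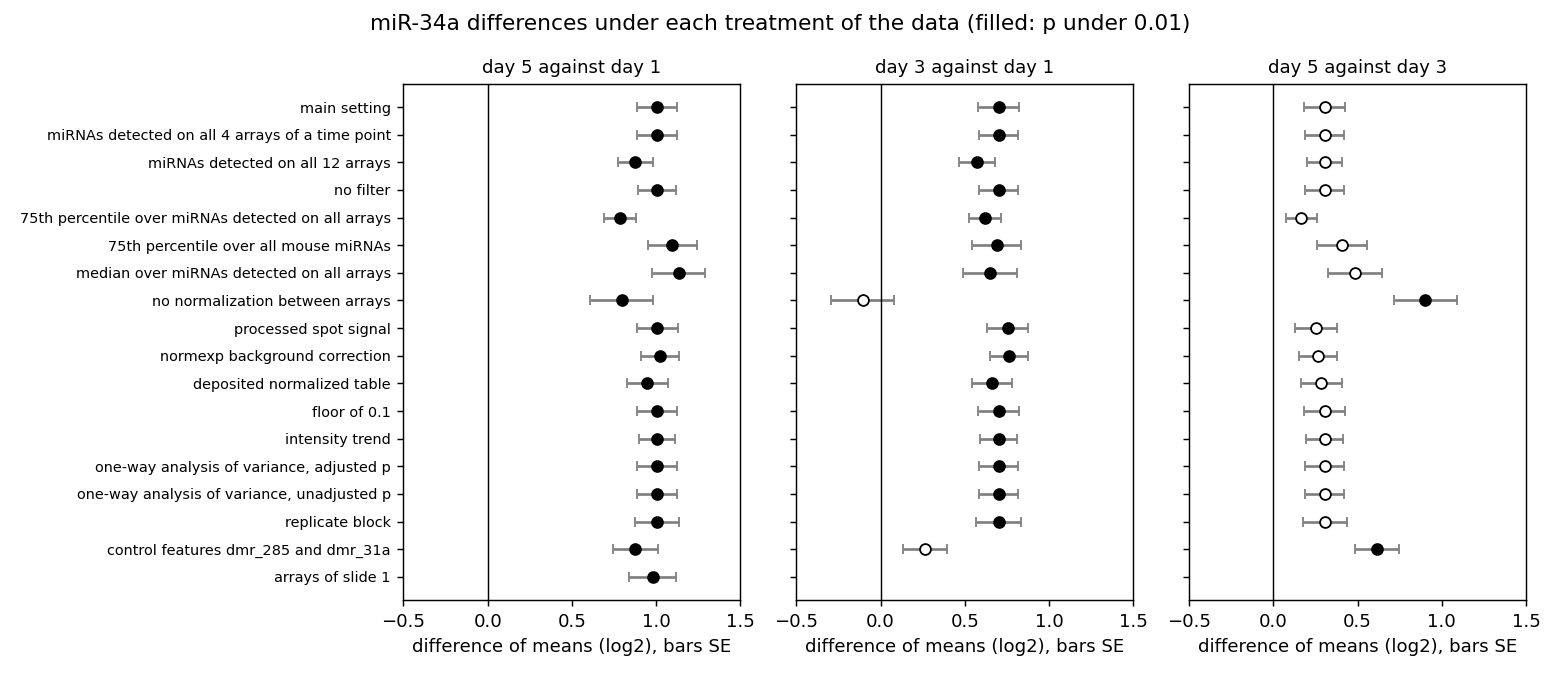
Difference in miR-34a between days (log2, horizontal axes) under the main setting and each other setting, with bars of 1 SE and filled points for p under 0.01. The day 5 against day 1 differences stay between 0.79 and 1.13, whereas day 3 against day 1 drops to 0.26 with the control features and to -0.11 with no normalization.

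The 2 probes of miR-34a behaved alike. Each probe's signal was placed on the quantile-normalized scale of its array by interpolation between the total signals of the miRNAs. On that scale the 19-base probe was higher at day 5 than at day 1 by 1.12 and the 20-base probe by 1.01 (log2, exact permutation p = 0.0286 each, n = 4 per day). As read by the scanner the differences were 0.75 and 0.84, again with no overlap between the days. For day 3 against day 1 the scaled values differed by 0.98 and 0.84 with no overlap (exact permutation p = 0.0286 each, n = 4 per day), whereas the scanner values of the probes differed by -0.11 and -0.08, with overlapping arrays.

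The closest relatives of miR-34a came up from below detection. miR-34b-5p, which shares the seed, was detected on 0 of 4 arrays at day 1, on 4 of 4 at day 3 and on 4 of 4 at day 5. Its scanner signal was 16.7, 39.9, 44.5 and 2.59 at day 1. It was 219, 176, 195 and 164 at day 3 and 466, 356, 329 and 288 at day 5. The 3 days did not overlap even without scaling (day 5 against day 3, exact permutation p = 0.0286, n = 4 per day). No permutation p-value is given against day 1, because miR-34b-5p was tested only through arrays of day 3 and day 5. The day 1 and day 3 scanner signals of miR-34c*, detected on no array, did not overlap either. The share of all miRNAs without such overlap was not counted.

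miR-34c, cut from the same transcript as miR-34b, followed the same course. It was detected on 0, 4 and 3 arrays at the successive days. Its mean scanner signal was -22.3 ± 19.5 at day 1, 185 ± 13.3 at day 3 and 312 ± 67.0 at day 5 (SD, n = 4), a negative value being a spot dimmer than its background estimate. Its scanner signals at the 3 days did not overlap either.

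Because both were undetected on every day 1 array, only bounds on their folds can be given. The lowest normalized signal among miRNAs called detected lay near the floor on the day 1 arrays and gave no useful reference. The 5th percentile of detected signals on each array was therefore used. Against it, normalized miR-34b-5p was at least 3.79-fold higher at day 3 and at least 4.77-fold higher at day 5. For miR-34c the bounds were at least 3.73-fold and at least 4.10-fold, with detection on 3 of 4 arrays at day 5. All day 1 values of miR-34c were at the floor. Both miRNAs were among those tested only through arrays of day 3 and day 5. That left only an upward direction from day 1, so no limma p-value is given for these bounds. Both directions from day 1 held with no scaling and with the control features.

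The family list held 7 relatives, of which 3 were tested and 2, miR-34b-5p and miR-34c, changed, both upward. Among all tested miRNAs, 32.6% changed with their largest difference upward and 30.2% downward. The 3 tested relatives entered only through arrays of later days, which left only an upward direction from day 1. miR-34b-3p, the opposite arm of the miR-34b hairpin, was detected on 0, 1 and 2 arrays per day and did not pass (F test of limma, Benjamini-Hochberg adjusted p = 0.0196). miR-34c*, miR-449a, miR-449b and miR-449c were detected on no array. At day 1 the miR-34a probes were bright while those of miR-34b-5p and miR-34c were not above background, and between day 1 and day 3 the scanner signals of the latter rose without overlap while the mean of miR-34a went to 90.7% of its day 1 value.

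**Figure D3:**
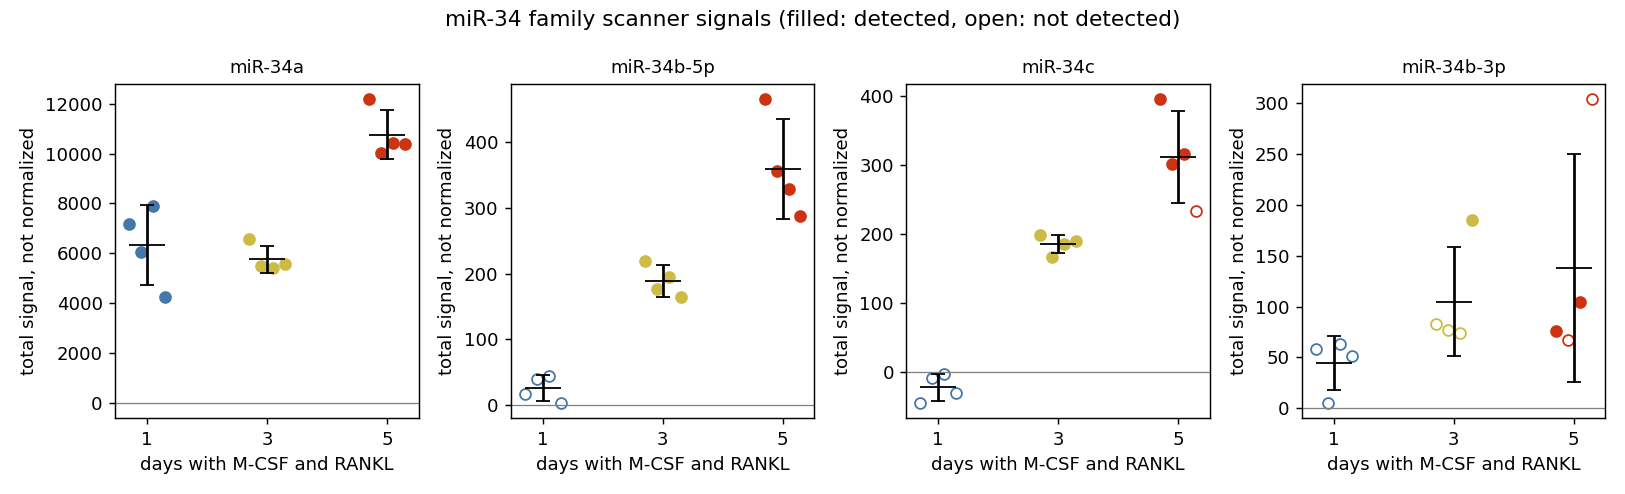
Scanner signal, not normalized (vertical axes, each with its own scale), of miR-34a and its 3 tested relatives against days in culture. Filled points are arrays on which the miRNA was detected and open points arrays on which it was not, and black bars are the mean ± SD. miR-34b-5p and miR-34c go from undetected at day 1 to 164 or more at day 3, while miR-34a is detected on every array.

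miRNAs linked to p53 by general knowledge included members that changed upward and members that changed downward. Of 14 on the list, which includes the miR-34b and miR-34c arms, 11 were tested and 7 changed, 4 upward and 3 downward, beside 62.9% of all tested miRNAs changed (32.6% upward and 30.2% downward). The share changed was thus near that over all tested miRNAs and is no result about this list. miR-34b-5p, miR-34c and miR-143 were detected on no day 1 array, which left them only an upward direction from day 1. The median difference between day 5 and day 1 was -0.13, against 0.11 over all tested miRNAs. miR-107, processed from an intron of a pantothenate kinase gene, rose by 0.44 between day 1 and day 5 (SE 0.09, limma adjusted p = 0.0009046), and by 0.37 with no scaling, which did not pass (limma adjusted p = 0.07962). miR-16, which restrains the cell cycle, fell by 0.40 (SE 0.08, limma adjusted p = 0.001154). Its cluster partner miR-15a was lowest at day 3, with a difference of -0.50 from day 1 (limma adjusted p = 0.0003205). miR-194, detected on 3 arrays at day 1 and on no later array, was also lower at day 3, the only direction left to it. miR-192, encoded beside a copy of miR-194, did not pass. Besides miR-107, the upward members were miR-34b-5p, miR-34c and miR-143, a smooth muscle and stromal miRNA detected only at day 5.

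miRNAs described as restraining osteoclast formation, as miR-34a is, likewise split. Of 8 listed, 6 were tested and 3 changed, beside 62.9% of all tested miRNAs, and the median difference between day 5 and day 1 was 0.22, against 0.11 over all tested. miR-125a-5p rose between day 1 and day 5 by 1.92 (SE 0.27, limma adjusted p = 7.495e-05). miR-146a, a brake on NF-κB signalling through TRAF6 and IRAK1, was 11.75 ± 0.17, 11.72 ± 0.06 and 12.90 ± 0.46 (log2, SD, n = 4) at the 3 days and so rose between day 3 and day 5 (1.19, limma adjusted p = 0.0009154). miR-155, which targets regulators of macrophage and osteoclast differentiation such as Mitf, fell by 1.05 between day 1 and day 5 (SE 0.25, limma adjusted p = 0.003676) and was not detected on any day 3 array. Its difference was -2.03 with no scaling and -1.95 with the control features, neither of which passed (limma adjusted p = 0.01419 and 0.01913). miR-26a, miR-503 and miR-7b did not pass, and miR-124 and miR-141 were detected on no array.

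Among 8 miRNAs described as promoting osteoclast formation, 7 were tested and 6 changed, 5 of them upward, beside 62.9% changed and 32.6% upward among all tested miRNAs. Their median difference between day 5 and day 1 was 0.95, against 0.11 over all tested. miR-29a, miR-29b and miR-29c, a family with one seed that targets collagen messages, rose by 0.95, 1.90 and 0.95 between day 1 and day 5 (limma adjusted p = 7.443e-07, 1.125e-06 and 5.176e-07). miR-183, one of the 5 upward members, was undetected at day 1 and detected on all arrays of day 3 and day 5. That left it only an upward direction from day 1. miR-148a fell by 0.43 (limma adjusted p = 0.0001773). miR-21, saturated on every array of day 1, day 3 and day 5, differed by 0.21 and did not pass. miR-34a thus rose over the same days as members of both the restraining and the promoting lists, and no test of a difference between the lists was run.

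Markers of other cells moved over the same days. The myeloid miRNAs miR-223, miR-142-3p and miR-142-5p were detected on all 12 arrays, with a summed scanner signal of 101360 to 121056 at day 1, 54177 to 69194 at day 3 and 77799 to 95580 at day 5. Of them miR-223, saturated on every day 1 and day 5 array, fell by 0.43 between day 1 and day 5 (limma adjusted p = 2.28e-05). With the control features the miR-223 difference did not pass (limma adjusted p = 0.04809). miR-142-3p and miR-142-5p were 0.57 and 0.10 higher at day 5 than at day 1, and neither passed. The erythroid miR-451 and miR-144 fell, with a summed scanner signal of 29020 to 57393 at day 1 and 124 to 295 at day 5, and miR-144 was detected on no array after day 1. Of 5 stromal miRNAs, 4 changed, all upward, beside 62.9% of all tested miRNAs changed and 32.6% upward. One of them, miR-143, was detected only at day 5, which left it only an upward direction from day 1. miR-145 did not pass, with a difference of -3.62 between day 3 and day 1. The summed stromal signal was 494 to 896 at day 1, 403 to 529 at day 3 and 2432 to 3545 at day 5. In the lymphoid list miR-181a fell, and miR-181b passed upward with a day 3 difference that turned negative with no scaling. miR-150, detected on 4 arrays at day 1 and on no later array, did not pass (F test of limma, adjusted p = 0.1024). Its day 5 difference from day 1 was -3.08 and did not pass (limma adjusted p = 0.067). With no scaling it was -2.98 and with the control features -2.90, both of which passed (limma adjusted p = 0.006807 and 0.007202). The day 3 differences of miR-150 from day 1 passed in neither. The lymphoid list summed to 2471 to 3336 at day 1 and 1594 to 2026 at day 5. miR-126-3p, of megakaryocytes and endothelium, fell and was undetected after day 1. miR-126-5p, from the same hairpin, was detected on only 1 day 1 array (3.72 ± 2.58 at day 1, log2, SD, n = 4). All its later values were at the floor, and no bound on its fold can be given. miR-144, miR-150, miR-126-3p and miR-126-5p were tested only through day 1 arrays, which left them only a downward direction from day 1. The part of these cell types in the miR-34a signal was not tested.

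The miRNAs whose pattern was most like that of miR-34a were sought among the 147 others detected on all arrays, by Pearson's r over the 12 normalized arrays. These arrays form 3 time points, so r is a description of a shared time course. The highest were miR-22* and let-7f (r = 0.97 each), followed by let-7e, miR-350 and miR-30b (r = 0.96 each). On unnormalized signals the same 5 had r of 0.90 to 0.97. Their differences between day 5 and day 1 ranged from 0.81 for miR-30b to 2.38 for let-7e, beside 1.00 for miR-34a, and let-7f reached saturation. Like miR-34a, miR-22*, let-7f, miR-350 and miR-30b had a day 3 difference from day 1 that turned negative with no scaling. That sign is not particular to them, since the median day 3 difference of all tested miRNAs was -0.77 with no scaling.

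The miRNAs least like miR-34a were miR-2138_v15.0, miR-2134_v15.0, miR-2135_v15.0, miR-2132_v15.0 and miR-2137, with r of -0.97 to -0.95. Their normalized day 5 minus day 1 differences ran from -2.40 to -1.15 (log2), and they were also lower at day 5 with no scaling. On unnormalized signals their r with miR-34a was -0.39 to -0.25.

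**Figure D4:**
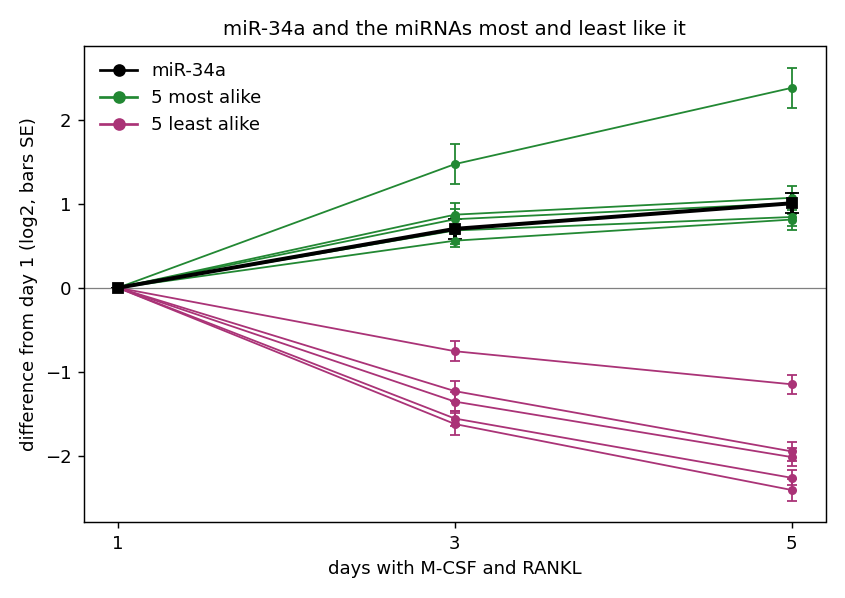
Difference from day 1 (log2, normalized, bars of 1 SE) at days 3 and 5 for miR-34a (black), the 5 miRNAs most like it (green) and the 5 least like it (purple). The green lines rise to between 0.81 and 2.38 at day 5 around the 1.00 of miR-34a, and the purple lines fall.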

How the data were processed

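Agilent one-colour miRNA arrays were scanned by the authors, and the images were processed with Feature Extraction 9.5.3.1 (per the labels and file headers). The deposited scanner files hold intensity values per spot and, for each miRNA, a background-subtracted total signal with a detection call. The authors also deposited a table of log2 values, used as an alternative; by the methods, miRNAs detected in 1 or more samples were quantile normalized in GeneSpring GX. It holds a value only where the scanner file marks the miRNA as detected, and its median per array ran from 8.79 to 10.26.

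Any miRNA called present on 1 or more of the 12 arrays was kept (334), and the kept signals were quantile normalized, set to a floor of 1 (372 values, 9.28%) and tested on the log2 scale with limma 3.58.1 in R 4.3.3, with Benjamini-Hochberg adjustment. Single values were tested with two-sided exact permutation tests (scipy 1.17.1). The scripts were tested on simulated data. The number of arrays limits the precision. Alternatives were other filters, scalings, signals, floors, tests and left-out arrays; scaling to control features was chosen after seeing the data. miR-34a, the miRNA lists and their tests were chosen with earlier results of these data known. Named miRNAs were miR-34a, list members and the 5 most and least like it. What the control features measure is not given in the sources used here, and their part was not tested. miR-486 was not matched on the array.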

Additional observations from a re-analysis of the deposited data

Results flagged for a closer look

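In some groups of 4 arrays, 1 array lay apart from the rest by Dixon's ratio, which chance alone exceeds in about 1 in 20 groups. miR-34b-5p at day 3 read 7.58 (normalized log2) in culture 4, with a ratio of 0.88. miR-34b-3p at day 3 read 7.85 in culture 4, with a ratio of 0.83. miR-34c at day 5 read 7.58 in culture 4, with a ratio of 0.895. Culture 4 had the fewest detected miRNAs of its day on both days, 211 at day 3 and 186 at day 5, and its negative control features summed to 312 and 630. The part of these arrays in the values was not tested. Before normalization, miR-34b-3p in culture 4 had scanner signals of 185 at day 3 (ratio 0.916) and 304 at day 5 (ratio 0.843). For miR-34a, culture 1 stood apart at day 3 on the scanner signal (6556, ratio 0.868). With the control features, culture 3 stood apart at day 1 (12.68, ratio 0.862) and at day 3 (12.52, ratio 0.857). None of the quantile-normalized miR-34a groups had such an array.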

How the results depend on the processing

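The rise of miR-34a from day 1 to day 5 and its change over the 3 days kept direction and call under every setting run. Leaving out 1 array at a time gave 0.93 to 1.13 for both, 0.63 to 0.84 for day 3 against day 1 and 0.28 to 0.36 for day 5 against day 3. For the 19-base and the 20-base probe it gave 0.97 to 1.29 and 0.91 to 1.11. The counts changed were 2 to 3 in the family, 6 to 9 p53-linked, 3 to 4 restraining and 6 to 7 promoting. With no normalization, day 3 against day 1 was -0.11 and day 5 against day 3 was 0.90. With the control features they were 0.26 and 0.61. The p53-linked count of 7 became 3 over miRNAs detected on all 12 arrays and 3 in the deposited table, where only 3 and 4 members were tested. No family member could be tested in either. With the replicate number as a block, the estimates were the same (day 5 against day 1 1.00, limma adjusted p = 0.0002902; day 3 against day 1 adjusted p = 0.002689; day 5 against day 3 adjusted p = 0.1236) and no call changed. Same-numbered cultures deviated together with r of 0.087 to 0.784, over 0.1 in 11 of 12 pairs, and 9 of 12 arrays correlated best with their own number, a hint from the data that the numbers may pair the cultures; the labels name no shared mouse or batch. The scalings moved the median of all tested miRNAs between day 1 and day 5 from 0.11 to as low as -0.51. Signals near background limit miR-34b-5p and miR-34c at day 1 to bounds.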

Other observations

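The 20-base probe of miR-34a was brighter than the 19-base probe on every array, by 1.29 to 1.47 times (median 1.42). The mean ratio was 1.37 at day 1, 1.40 at day 3 and 1.46 at day 5, with arrays from 1.29 to 1.45 at day 1 and from 1.45 to 1.47 at day 5. The cause was not tested.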
